A study of Homo sapiens with 4 samples.

Results

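MHC class I molecules and the machinery that loads them with peptide were followed through 9 genes: the heavy chains HLA-B, HLA-C and HLA-E, the light chain B2M, the transporter subunits TAP1 and TAP2, the loading chaperone TAPBP and the trimming peptidases ERAP1 and ERAP2. The genes were chosen by name, and every cytidine position that the authors' tables annotate to one of them was taken. Of the 9 genes 7 had at least 1 listed position, together 45 different positions among the 17862 listed in the whole series. ERAP1 and ERAP2 had 0 positions in both tables.

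The cells were LX-2, a human hepatic stellate cell line labelled wild type, which stands here for stellate cells of the liver as a single line in culture. The untreated group (control) and the group given recombinant human TGF-β1 at 5 ng/ml for 24 h had 2 libraries each, described as biological replicates. Polyadenylated RNA was sequenced after sodium borohydride (NaBH4), which reduces N4-acetylcytidine (ac4C) so that reverse transcription can misread the base. No library is labelled as prepared without NaBH4, so a listed position is a mismatch at a C and was not shown here to be ac4C. Each group has 1 table and each position 1 value, the mismatch difference, printed in percent, with the authors' p-value. Reads, depth and values per library are not given, so no value has a replicate error, no test between the groups was possible, and the spread between cultures is unknown.

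Class I heavy chains pair with beta-2-microglobulin, the product of B2M, and present peptides from inside the cell to CD8 T cells. HLA-B and HLA-C are classical, highly polymorphic heavy chains that also engage receptors of natural killer cells, and HLA-E is a conserved nonclassical chain read by the receptor CD94/NKG2A. Peptides are pumped into the endoplasmic reticulum by the TAP1-TAP2 transporter, trimmed there by ERAP1 and ERAP2, and loaded with the help of tapasin, the product of TAPBP. Because class I genes vary between people and resemble each other, a difference between the alleles of LX-2 and the reference, or a read from a sister gene, can also give a mismatch. Its part in the values of HLA-B, HLA-C and HLA-E was not tested.

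The reference sequence was at hand around 3 of the 45 positions, those near the start sites of B2M and TAPBP, and these include the highest value of each table among the class I genes. Each run below is 30 bases of RefSeq GRCh38.p14, written 5′ to 3′ on the gene's strand, with the listed C as the only capital.
B2M, chr15:44711497-44711526, plus strand: gaggcgtcgcgctggCgggcattcctgaag
TAPBP, chr6:33314046-33314075, minus strand, listed after TGF-β1: gaggaggcttcatggCtgaggaggtcgcag
TAPBP, chr6:33314131-33314160, minus strand, listed in control: cccaggcaccttcacCtaaccagagcgggg
The C of B2M lies 5 bases before the RefSeq start site and is followed by G, and the 2 in TAPBP lie 18 bases after and 67 bases before the start and are followed by T. The tables annotate all 3 to 5′UTRs, so their transcript models begin further upstream than the RefSeq start for 2 of them.

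More cytidines of class I and loading genes were listed after TGF-β1 than in control, and the net excess lay under 5%. Most positions were listed in 1 group only, which also held over all genes. Of the control positions 20% were also listed after TGF-β1, against 24.5% over all. Of those after TGF-β1 9.09% were also listed in control, against 16.9% over all. Positions listed in 1 table only reached 55.6% in control (B2M) and 22.2% after TGF-β1 (TAPBP). In control 15 positions in 6 of the genes were listed, and after TGF-β1 33 positions in 7, a ratio of 2.2 against 1.46 over all genes. With mismatch differences under 5% there were 5 control and 23 TGF-β1 positions, and at 5% or more there were 10 in each table. Over all genes the ratio was 1.27 under 5% and 1.75 at 5% or more. The median over the class I and loading positions was 5.75% in control and 3.001% after TGF-β1, whereas the median of all listed positions was 4.05% and 4.68%. In control 5 of 15 positions lay under the median of their table, and after TGF-β1 23 of 33 did. Both the 3 HLA genes (11 and 25 positions, medians of 5.72% and 3.001%) and the other members (4 and 8 positions, medians of 6.77% and 2.98%) had more positions and a lower median after TGF-β1.

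**Figure D1:**
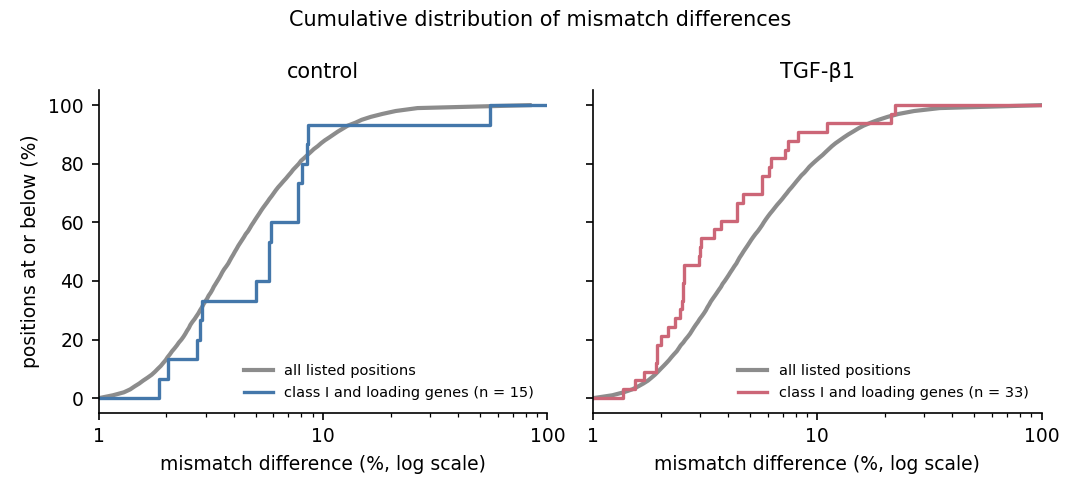
Cumulative share of positions (y axis, %) at or below a mismatch difference (x axis, %, log scale) in control (left) and after TGF-β1 (right), for the class I and loading genes (coloured steps, 15 and 33 positions) and for all listed positions (grey lines). The coloured steps reach 50% to the right of the grey line in control (5.75% against 4.05%) and to its left after TGF-β1 (3.001% against 4.68%).

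By gene, 5 of the 7 listed members had a higher number after TGF-β1, 1 a lower one and 1 the same. Over all 6112 listed genes 51.2% had more and 35.3% had fewer. HLA-C had 1 and 8 positions in control and after TGF-β1, HLA-E 5 and 10, HLA-B 5 and 7, B2M 1 and 3, TAP1 0 and 3, TAPBP 1 and 1, and TAP2 2 and 1. Counting only mismatch differences of at least 5%, the direction was split: 3 members (HLA-C, TAP1 and TAPBP) had more and 4 (B2M, HLA-B, HLA-E and TAP2) had fewer, where 58.5% of all genes had more. Values of 10% or more stood at 1 of 15 control positions, with 12.4% over all control positions, and at 3 of 33 after TGF-β1, with 18.5% over all. The 1 in control was in B2M, and the 3 after TGF-β1 were 2 in HLA-E and 1 in TAPBP.

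**Figure D2:**
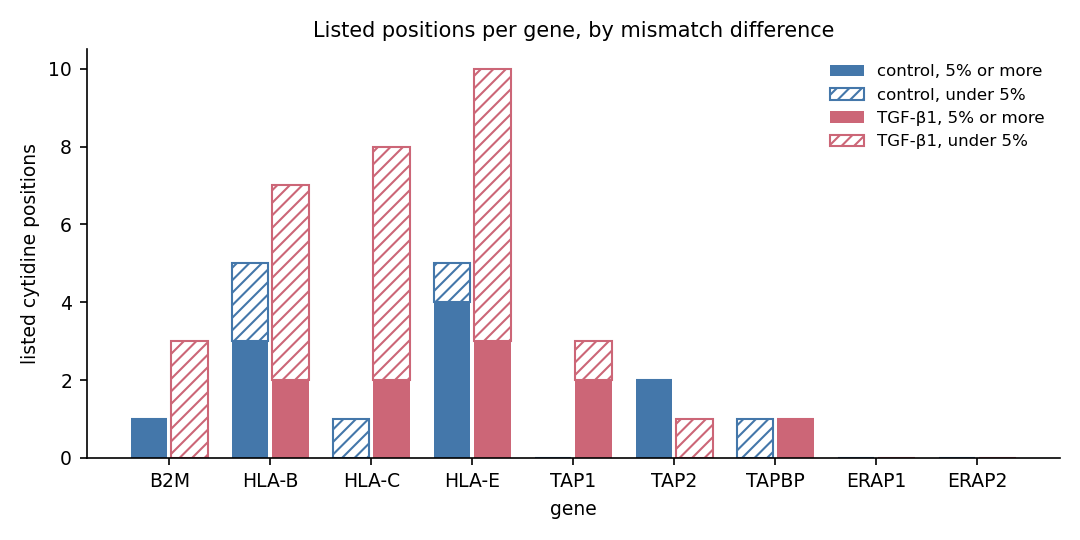
Number of listed cytidine positions (y axis) for each of the 9 genes (x axis) in control (blue) and after TGF-β1 (red), with positions of 5% or more filled and those under 5% hatched. HLA-E has the most in each table together with HLA-B in control, the hatched parts hold 5 control and 23 TGF-β1 positions, and ERAP1 and ERAP2 have no bar.

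Among the heavy chains, HLA-E (ENSG00000204592, chromosome 6, plus strand) held the highest coding values. Its coding cytidine at position 30491168 had 8.55% in control (p-value of the authors 1.86e-28) and 21.3% after TGF-β1 (8.97e-59), a difference of 12.8 points. That value was the highest of the 26 coding positions of these genes after TGF-β1 and rank 435 of 11735 in its table. The nearby coding cytidines at 30491270 and 30491272 were listed after TGF-β1 alone, with 11.0% and 4.41%. The 4 other control positions of HLA-E were not listed again: 8.02% in the 5′UTR, 22 bases after the gene start, 1.85% and 5.00% in coding sequence, and 5.75% in the 3′UTR. The other 7 positions after TGF-β1 ran from 1.69% to 6.20%, 4 in coding sequence and 3 in the 3′UTR. The coding position at 6.20% carries an authors' p-value of exactly 0.

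HLA-C (ENSG00000204525, minus strand) had the largest difference in number, and its positions were all coding. The only control position, at 31270326, had 2.03% and was listed again after TGF-β1 with 2.97%. The 7 other positions after TGF-β1 ran from 1.54% at 31271263 to 6.11% at 31270404. The smallest authors' p-value among them, 1.91e-48, belonged to the cytidine at 31271615 with 4.65%. Leaving out HLA-C gave the lowest ratio for the gene group of any single gene left out, 1.79 (14 and 25 positions), and leaving out HLA-B the highest, 2.6.

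HLA-B (ENSG00000234745, minus strand) had different sites in the 2 tables apart from 1 shared cytidine. In control the positions were a 3′UTR cytidine at 5.72%, a coding one at 31355564 with 8.47%, one at 31355637 in a noncoding exon with 7.74%, and coding ones at 2.90% and 2.73%. The coding cytidine at 31356256 was the shared one, with 2.73% in control and 5.67% after TGF-β1. The other 6 positions after TGF-β1 were coding and ran from 1.36% to 7.19%, the latter at 31356222. Of the control values 3 were above 5%, and of those after TGF-β1 2 were. The 3′UTR position carries an authors' p-value of exactly 0.

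B2M (ENSG00000166710, chromosome 15, plus strand) was listed at 1 high 5′UTR position in control and at 3 low 3′UTR positions after TGF-β1. The control position at 44711512, shown above, had 55.6% (p-value of the authors 1.05e-20) and ranked 5 of 8112 in its table. It is annotated to the 5′UTR of 1 transcript. It was not listed after TGF-β1, and a position that is not listed has no value there, whether it was read or not. In the TGF-β1 table the 3′UTR cytidines at 44716350, 44717823 and 44717826 had 2.51%, 2.16% and 1.93%. No coding cytidine of B2M was in either table. Among genes with a start-site window at hand, which leaves out HLA-E, 135 control positions lay within 50 bases of a RefSeq start. Their median was 4.08%. At 20% or more were 7 of them, B2M included (5.19%, against 2.34% of all other control positions). Those others include positions of genes without a window, such as HLA-E. After TGF-β1 the shares were alike, with 8 of 182 such positions at 20% or more, TAPBP included (4.40%, against 4.30% of all others). The higher share near starts was thus seen in control only, and it rests on 7 positions.

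The transporter subunits went opposite ways in number, TAP2 only from 2 to 1. Of all listed genes 28.3% were listed after TGF-β1 only, and 35.3% had fewer positions than in control. TAP1 (ENSG00000168394) was absent from the control table and had 3 coding positions after TGF-β1, with 8.21% at 32850368, 7.43% at 32848823 and 2.32% at 32848042. TAP2 (ENSG00000204267) had 2 coding positions in control, 7.70% at 32832668 and 5.84% at 32832815, and a different one after TGF-β1, 3.45% at 32830392. The tables also annotate the 3 TAP2 positions to the overlapping gene ENSG00000250264, so their reads cannot be assigned to TAP2 alone. Both subunits lie on the minus strand of chromosome 6.

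TAPBP (ENSG00000231925), which encodes tapasin, had 1 5′UTR position in each table, at different cytidines. In control it was at 33314145 with 2.84% (p-value of the authors 6.38e-08), and after TGF-β1 at 33314060 with 22.2% (0.00265), rank 387 of 11735. The HLA-E cytidine with a similar 21.3% has an authors' p-value of 8.97e-59, so at like mismatch difference the p-values of these 2 genes were far apart. What enters the p-value is not stated in the sources used here.

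**Figure D3:**
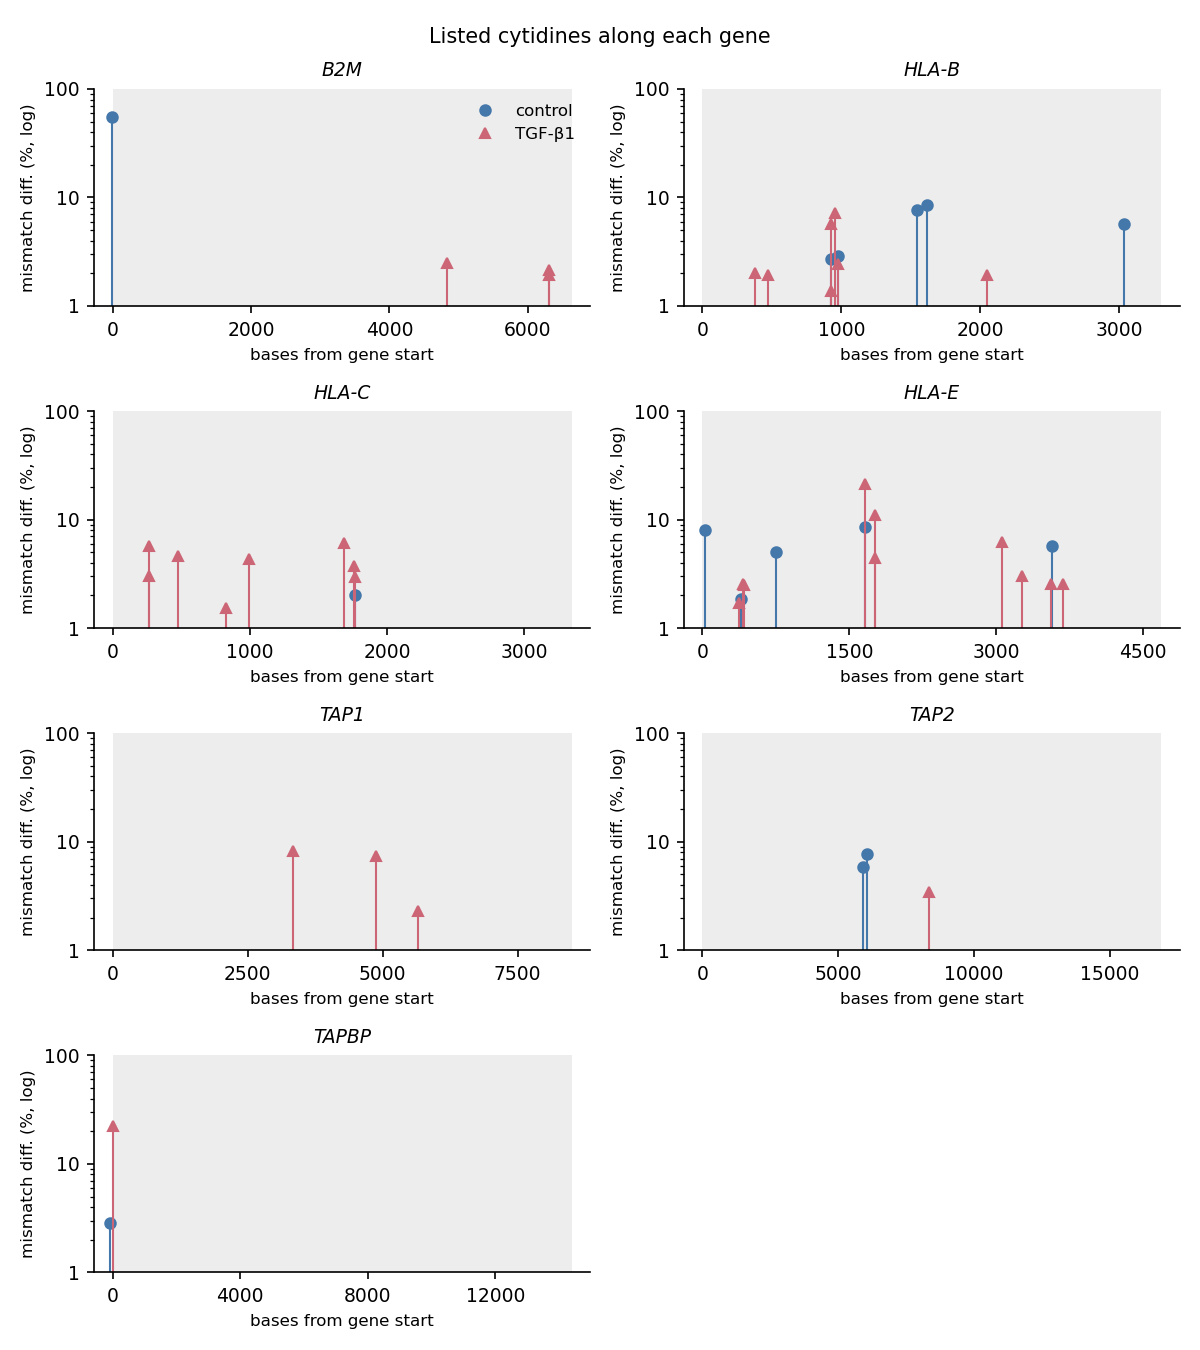
Mismatch difference (y axis, %, log scale) of every listed cytidine against its distance in bases from the RefSeq gene start (x axis), 1 panel for each of the 7 listed genes, with control as blue circles, TGF-β1 as red triangles and the RefSeq gene span in grey. The B2M circle at 55.6% and the TAPBP triangle at 22.2% stand at the gene start, and circle and triangle share a cytidine at 1 place each in HLA-B, HLA-C and HLA-E.

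The same cytidine was seldom listed in both groups. The 3 shared positions were 1 each in HLA-B, HLA-C and HLA-E, which is 20% of the control positions (95% Wilson interval 7.05 to 45.2) and 9.09% of those after TGF-β1 (3.14 to 23.6). Over all positions 24.5% of the control table and 16.9% of the TGF-β1 table were shared, within both intervals. The intervals take each position as independent, though several lie in the same gene. All 3 were higher after TGF-β1, by 12.8 points in HLA-E, 2.94 in HLA-B and 0.944 in HLA-C, and 78.4% of all shared positions were higher. Their log2 ratios of 1.32, 1.05 and 0.55 compare with a median of 0.58 over all 1985 shared positions, whose middle part ran from 0.09 to 1.06 (quartiles). These 3 positions and their values are too few to set the genes apart from other shared positions.

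Some sites that differed between the tables were close neighbours. In HLA-B the control cytidine at 31356200 (2.90%) and the TGF-β1 cytidine at 31356201 (2.44%) are adjacent bases, and in HLA-E the 3′UTR cytidines at 30493081 (5.75%, control) and 30493073 (2.55%, TGF-β1) are 8 bases apart. With these 2 and the 3 shared positions, 5 of the 15 control positions (33.3%) had a TGF-β1 position of the same gene within 10 bases. Over all genes 30.1% did, again with shared positions counted. The same cytidine was listed in both for 24.5% of all control positions. Within a table, 10 of the 33 TGF-β1 positions had another within 10 bases, in 5 pairs, where 14.1% of all did. The pairs were 2 in HLA-C and 1 each in B2M, HLA-B and HLA-E, the closest being 2 bases apart in HLA-C and HLA-E. In control 0 of 15 had such a neighbour, where 10.7% of all did. The number of positions per gene differs between the tables. It also differs between these genes (33 positions in 7 genes after TGF-β1) and all genes (12076 in 4444, counted once per gene). Neither was adjusted for.

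Most positions lay in coding sequence. After TGF-β1 26 of 33 (78.8%) were coding, 6 were in 3′UTRs and 1 in a 5′UTR, and over all positions 76.3% were coding. In control 9 of 15 (60%) were coding, 3 were in 5′UTRs, 2 in 3′UTRs and 1 in a noncoding exon, with 74.7% coding over all. The 3 control positions in 5′UTRs (20%, against 9.87% over all) were in B2M, HLA-E and TAPBP. None of these 3 recurred, where 24.5% of all control positions did. On the stretch of chromosome 6 from HLA-E to TAPBP (30489509 to 33314078), the other 60 listed genes had 101 control and 152 TGF-β1 positions (ratio 1.505). Of these genes 33 had more and 19 fewer. They include ENSG00000250264, to which the TAP2 positions are also annotated.

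Other genes of the pathway were counted from lists put together with earlier results of these data known. Their counts are to be read against all listed genes, of which 51.2% had more positions after TGF-β1 and 35.3% fewer, with a ratio of 1.46, and against the 78.4% of all shared positions that were higher. Of 16 other class I and class I-like genes 6 were listed, 4 with more positions after TGF-β1 and none with fewer (8 and 19 positions, ratio 2.38), and 3 of their 5 shared positions were higher. HLA-F, a nonclassical heavy chain, had 0 and 6 positions, with up to 24.0%. MICB, a stress-induced ligand of the receptor NKG2D, had 1 and 3, with a highest value of 21.1% and 48.9%. The pseudogene HLA-H had 2 shared positions, both higher after TGF-β1, and its reads can come from related class I genes.

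Chaperones and suppliers of peptide had more positions in sum, though not in most genes of peptide supply. Of 10 loading chaperones 8 were listed, 5 with more and 1 with fewer (22 and 38 positions, ratio 1.73), and 7 of 9 shared positions were higher. CALR, the lectin chaperone of the loading complex, had 2 and 11 positions, P4HB, a protein disulfide isomerase, 5 and 7, HSPA5, the ER chaperone BiP, 4 and 4, and HSP90B1, the HSP90 family chaperone of the ER, 3 and 4. Of 17 genes that make or trim peptides 13 were listed, 6 with more, 4 with fewer and 3 with equal numbers (15 and 31 positions, ratio 2.07). The catalytic proteasome subunits PSMB6 and PSMB7 had 5 and 4 and 0 and 5 positions, and the peptidases THOP1 and NRDC 2 and 6 and 1 and 5. At each of the 7 shared cytidines of these genes, 4 of them in PSMB6, the TGF-β1 value was the higher. Of 13 genes of class I trafficking and turnover 8 were listed, 7 with more and 1 with fewer (16 and 34 positions, ratio 2.13) and 5 of 6 shared positions higher, led by EHD1, which recycles endosomal cargo, and the autophagy receptor SQSTM1, each with 3 and 9.

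The list of interferon signalling and class I transcription, which also holds negative regulators, had the opposite balance in number. Of 26 genes of interferon signalling and class I transcription 13 were listed, 4 with more positions after TGF-β1 and 7 with fewer (17 and 14 positions, ratio 0.824), while all 3 of their shared positions were higher. STAT3, a transcription factor of cytokine signalling, had 4 and 0 positions, IRF1, an interferon-induced activator of class I promoters, 3 and 0, and the kinase TYK2 1 and 5. The class II list was almost empty, with 1 of 14 genes listed, HLA-DPB1, at 1 and 1 position. The difference between this list and the others was not tested.

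**Figure D4:**
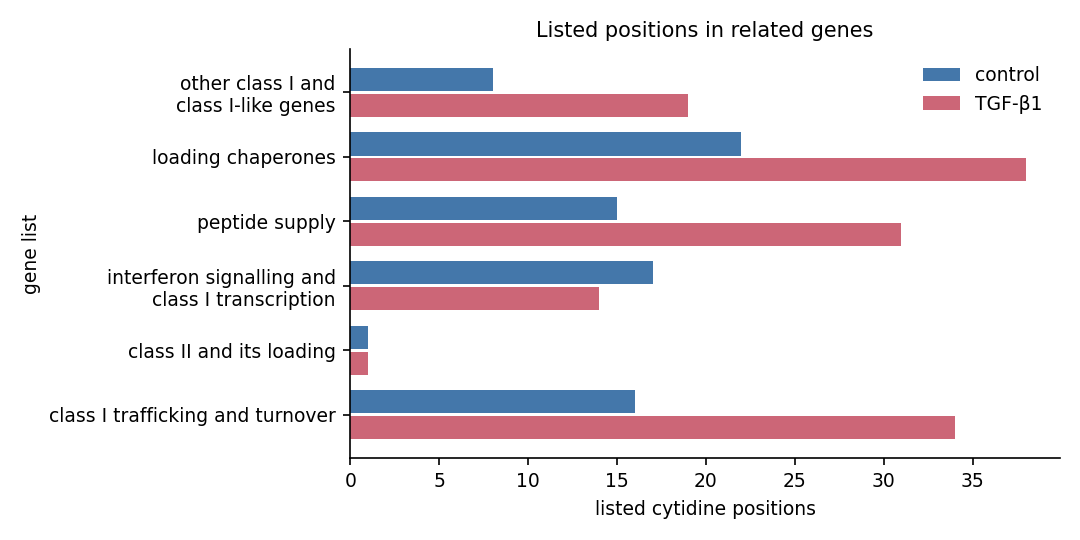
Number of listed cytidine positions (x axis) in control (blue) and after TGF-β1 (red) for 6 lists of related genes (y axis). The red bar is longer for the other class I genes (8 and 19), loading chaperones (22 and 38), peptide supply (15 and 31) and trafficking (16 and 34), shorter for interferon signalling (17 and 14) and equal for class II (1 and 1).

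Markers of the labelled cell type were listed and those of other liver cells were nearly absent. Of 10 stellate and mesenchymal markers 9 were listed, 8 with more positions after TGF-β1 and none with fewer (12 and 40 positions), a ratio of 3.33 that is above the 2.2 of the class I and loading genes. Among them were COL1A1 with 4 and 10 positions, TAGLN with 2 and 9, VIM with 3 and 6 and SPARC with 1 and 6. Of 10 Kupffer cell and leukocyte markers CD68 alone was listed (3 and 2 positions), of 5 cholangiocyte markers SOX9 alone (1 and 0), and of 9 hepatocyte and 6 endothelial markers none. A listed position needs a mismatch, so an unlisted marker is not shown to be unexpressed. How far more reads of a transcript, or more reads in a library, add low positions to a table was not tested, since depth is unknown.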

How the data were processed

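Per the labels, 2 untreated and 2 TGF-β1-treated libraries of LX-2 cells were sequenced. Build hg38 and the tools fastp 0.23.1, STAR 2.7.6a and featureCounts are named in the submitters' processing notes. The caller of positions, its filters and the pooling of replicates are not given in the sources that were used. For each group the authors deposited a table with a mismatch difference as a fraction (at least 0.01, printed in percent) and a p-value (below 0.05) per position and transcript. What the difference is taken from and whether the p-value was adjusted is not stated.

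Lines were merged to 1 row per position and gene name, and shared positions have the same chromosome, base and strand. Where transcripts gave several segments, coding sequence came first, then 5′UTR and 3′UTR. Start and end differ by 1 base. At 327 positions inside RefSeq windows around start sites (250 bases before to 50 after), the end coordinate held C at all 327 and the start coordinate at 59, so ends are printed, counted from 1. Wilson intervals (95%) cover counting error only. Genes, lists and alternatives were chosen with earlier results of these data known. All listed positions of the 9 genes were taken, and of each related list up to 4 genes with most positions were named, except a few that are not reported here. Counting was tested on simulated data. The planned model over libraries needed reads per library and was replaced by counts and differences with no test. Python 3.11.15, pandas 2.3.3 and scipy 1.17.1 were used. Depth per sample is unknown.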

Additional observations from a re-analysis of the deposited data

How the results depend on the processing

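Of 23 alternatives 20 were counted as unchanged, with the same direction and, in the same unit, a value within 1.5 times that reported. All 3 shared positions had an authors' p-value below 0.001 in both tables, and each position of these genes had 1 segment. The alternatives on these points kept the same positions and could not differ. The median log2 ratio of the shared positions (1.05) has another unit than the 2.94 points reported and can be compared by direction only. With a mismatch difference of at least 5%, the ratio of listed positions was 1 (10 and 10), with 1.75 over all genes, and 3 members had more positions after TGF-β1. Counting a TGF-β1 position within 10 bases as recurring raised the shared control positions from 3 to 5. The ratio of 2.2 lay between 1.79 and 2.6 with any single gene left out, an alternative chosen after seeing the data except for HLA-E (2.3). It was 2.08 at an authors' p-value below 0.001, where the ratio over all genes was 1.77 in place of 1.46, so the distance from all genes was smaller there. It was 1.8 when the TGF-β1 list was limited by p-value to as many positions as control has (27 positions left in these genes, 1.003 over all genes), and 2 without the 3 HLA genes. With that limit 4 members had more positions and 2 fewer, with 39.0% of all genes having more, and at a p-value below 0.001 5 had more and 2 fewer, with 57.3%. At 10% or more the ratio of 3 rests on 1 and 3 positions, with 2.17 over all genes. Without the HLA genes no shared position was left to compare. No paired analysis was possible because each table holds 1 value per group, and leaving out a replicate was not run for the same reason. The number of positions, 15 and 33, and the unknown depth limit every count.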

Other observations

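In 276 windows around RefSeq start sites, with none for HLA-E, 193 of the 327 listed cytidines (59.0%) were followed by G. Of all 24636 C in the same windows 30.5% were. The cytidine of B2M at 55.6% is followed by G and those of TAPBP are not. The windows are rich in C and G, and most positions of the class I genes lie outside them, so the base after those was not analysed here.

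Along the genes, HLA-B and HLA-C each had a coding cytidine listed after TGF-β1 alone at nearly the same distance from the gene start, 475 bases in HLA-B (1.93%) and 477 bases in HLA-C (4.65%). The genes were not aligned here, and whether these are the same codon was not tested.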
